A study of Homo sapiens with 6 samples.

Results

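The constitutive 26S proteasome is described here through 41 genes: the subunits of its catalytic core, the base and lid of the regulatory particle that caps the core, the factors that assemble them, and an activator and an inhibitor of the core. The members were chosen by gene symbol among the 31768 genes of a transcript count table, in which they hold 416 of 153848 transcripts. The table comes from HMC3 cells, an immortalized human cell line labelled as microglia. Cultures exposed to 15 Gy of X-rays from a 6 MV linear accelerator (irradiated, 3 independent cultures) were compared with cultures exposed to 0 Gy (control, 3 independent cultures), and RNA of both groups was collected after 24 h and sequenced as full-length cDNA with Oxford Nanopore long reads. No genetic change or other agent distinguishes the groups, and HMC3 is a single cell line.

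The proteasome is the barrel-shaped protease that degrades proteins tagged with ubiquitin. Its core is built from outer alpha rings, which gate the entry, and inner beta rings, which carry the proteolytic sites, and the ATPases of the base unfold the substrate while the lid removes its ubiquitin. Cells that lose proteasome activity are known to raise the subunit genes together through NFE2L1, a transcription factor of the endoplasmic reticulum that is released by proteolysis.

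Library totals ran from 6292049 to 6909420 counts in irradiated cultures and from 4870897 to 9082409 in control cultures, of which 47419 to 55099 and 41643 to 73371 counts fell on the members. Of 12 microglia and macrophage markers, 4 exceeded 1 CPM (counts scaled to a common library size) in any library. Another 5, among them P2RY12, TMEM119 and CX3CR1, have no transcript in the count table and were taken as 0. Their summed level was 34.3 to 38.9 CPM in irradiated and 25.3 to 38.9 CPM in control cultures, most of it CD68, a lysosomal protein of macrophages (mean 33.5 and 28.6 CPM). Fibroblast and pericyte markers summed to 359 to 440 CPM in irradiated and 375 to 415 CPM in control cultures (8 of 10 above 1 CPM, COL3A1 not in the count table). Neuron, astrocyte and oligodendrocyte markers summed to 18.1 to 30.4 CPM and 24.6 to 29.4 CPM (4 of 10 above 1 CPM), most of it SNAP25 (mean 19.1 CPM in irradiated and 24.5 CPM in control cultures). Control 3 stood closer to the irradiated libraries than controls 1 and 2 did: its lowest and highest correlation with them across genes were 0.96 and 0.973, against 0.92 to 0.951 for controls 1 and 2 (a description over genes, which are not independent).

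Most proteasome genes fell after irradiation. Of the 40 members that passed the filters, 27 were called lower in irradiated cells and 2, PSMB4 and PSMD3, higher, with an adjusted p below 0.05 (quasi-likelihood test of edgeR, Benjamini-Hochberg adjusted over 11118 genes). Over all genes tested, 14.1% were called lower and 11.6% higher by the same rule. The log2 fold change of irradiated over control cells was negative in 38 of the 40 members. Its median was -0.48 over the members and 0.08 over all genes tested, and it ran from -0.98 (PSMD9) to 0.98 (PSMD3). In 33 members the 3 irradiated and 3 control libraries did not overlap (31 lower, 2 higher), as did 42.7% of all genes tested. None of the members passed the stricter limit that adds an absolute log2 fold change over 1, which 5.7% of all genes passed. PSMD9 passed it with RLE factors (another scaling between libraries), DESeq2, protein-coding transcripts only or no retained-intron transcripts (-1.07 to -1.02), and PSMD3 with library totals, a replicate block, an offset for transcript length or protein-coding transcripts only (1.01 to 1.41). Without irradiated 2 or control 3, PSMD9, PSMD3 and PSMG2 passed it, and PSMA2 without control 3 (-1.001). Since whole cultures were sequenced, fewer transcripts per cell and a smaller share of cells expressing a gene cannot be told apart.

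The direction of the members depended on the scaling between libraries. CPM here are scaled with TMM factors, which assume that most genes do not change, and which were 1.09 to 1.24 in irradiated and 0.793 to 0.928 in control libraries. As a share of all counts, with no such scaling, the members took 0.754%, 0.787% and 0.797% in irradiated and 0.855%, 0.843% and 0.808% in control libraries, which did not overlap. With library totals alone, 9 members fell and 5 rose, and the median over the members was -0.02 while that over all genes moved to 0.53. Over all genes, this scaling called 356 lower and 3643 higher, against 1567 lower and 1292 higher with TMM factors. The members' median lay below that of all genes under both scalings. A change of scaling moves all genes by nearly the same amount, so this order could hardly change and is no check on the fall. The sign of single members held under both for 26 of the 40.

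**Figure D1:**
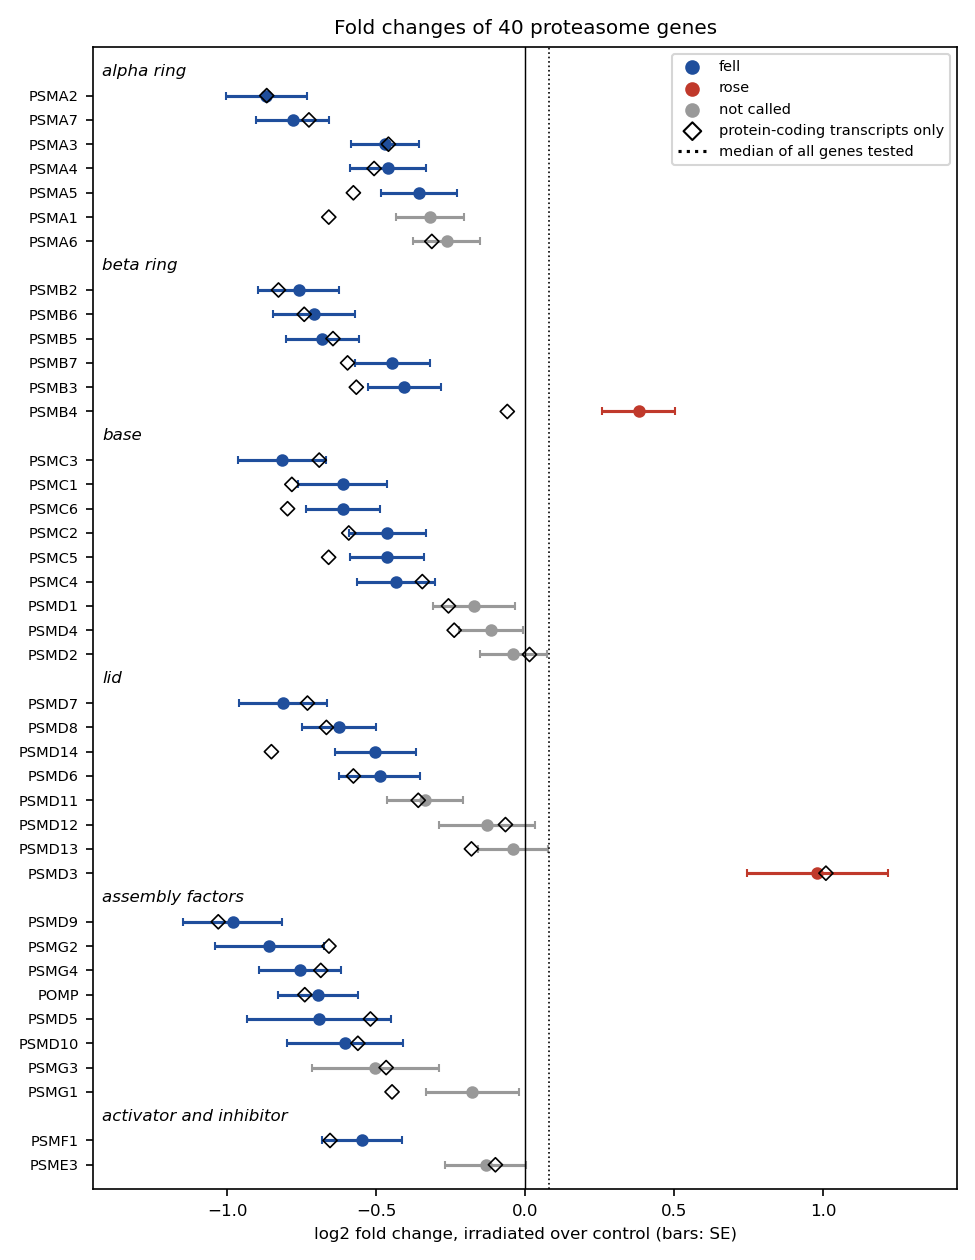
Log2 fold change of irradiated over control cells for 40 proteasome genes (horizontal axis; bars give SE), grouped by role and sorted by value (vertical axis). Filled points use all transcripts of a gene and are blue where the gene fell, red where it rose and gray where neither was called, open diamonds use protein-coding transcripts only, and the dotted line is the median of all genes tested (0.08). PSMB4 lies at 0.38 with all transcripts and at -0.06 with protein-coding transcripts only, while PSMD3 stays near 1.

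In the alpha ring, 5 of the 7 subunit genes fell, none rose, and the median log2 fold change was -0.46. PSMA2 had 399, 515 and 435 CPM in the irradiated libraries, against 832, 936 and 699 CPM in the control libraries. Every irradiated library lay below every control library, and the log2 fold change was -0.87 (SE 0.14, adjusted p = 0.000759 by edgeR), a level 1.83-fold lower. PSMA7 had 422, 512 and 472 CPM in irradiated libraries, against 819, 878 and 717 CPM in control libraries, again without overlap (log2 fold change -0.78, SE 0.12, adjusted p = 0.000776 by edgeR). PSMA3 had 162, 179 and 176 CPM in irradiated libraries, against 241, 253 and 224 CPM in control libraries (log2 fold change -0.47, SE 0.11, adjusted p = 0.00716 by edgeR). All of these encode structural subunits of the ring that gates the core, and control 3 was the lowest control library for each. PSMA4 and PSMA5 fell as well, at -0.46 and -0.36, and PSMA1 and PSMA6 did not pass the test, at -0.32 and -0.26. With an offset for transcript length, PSMA3 was no longer called (-0.11, adjusted p = 0.404 by edgeR).

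In the beta ring, 5 of the 6 genes tested fell and 1 rose, with a median log2 fold change of -0.56. PSMB5, the subunit with the chymotrypsin-like activity, had 218, 268 and 246 CPM in irradiated libraries, against 411, 417 and 346 CPM in control libraries (log2 fold change -0.68, SE 0.12, adjusted p = 0.00143 by edgeR). PSMB6, the subunit with the caspase-like activity, had 275, 337 and 314 CPM in irradiated libraries, against 541, 567 and 406 CPM in control libraries (log2 fold change -0.71, SE 0.14, adjusted p = 0.0021 by edgeR). PSMB2, a subunit without a catalytic site, had 95.9, 116 and 112 CPM in irradiated libraries, against 187, 208 and 154 CPM in control libraries (log2 fold change -0.76, SE 0.14, adjusted p = 0.00135 by edgeR). The groups did not overlap for any of these genes. The gene of the trypsin-like subunit, PSMB7, fell by 0.45 on the log2 scale and PSMB3 by 0.41. With the length offset neither was called (-0.10 and -0.02, adjusted p = 0.513 and 0.915 by edgeR), and the median of the ring was -0.22.

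PSMB4, another subunit without a catalytic site, moved the other way at the gene level (chromosome 1, 151399534 to 151401944, GRCh38, plus strand). It had 205, 185 and 212 CPM in irradiated libraries, against 141, 147 and 174 CPM in control libraries. The groups did not overlap, and the log2 fold change was 0.38 (SE 0.12, adjusted p = 0.0311 by edgeR). This call was lost when irradiated 1, irradiated 3, control 1 or control 2 was left out (adjusted p = 0.0829 to 0.148 by edgeR). It was also lost, with the sign turned to -0.06 (adjusted p = 0.731 by edgeR), when only protein-coding transcripts were summed.

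PSMB1, which completes the beta ring, was not in the gene test, because its counts lie almost wholly (99.9%) in 1 transcript and the filter asks for at least 2. It had 69.3, 97.9 and 77.7 CPM in irradiated libraries, against 133, 152 and 116 CPM in control libraries, without overlap. In a fit without filters over 31768 genes its log2 fold change was -0.71 (SE 0.15, adjusted p = 7.7e-05 by edgeR).

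**Figure D2:**
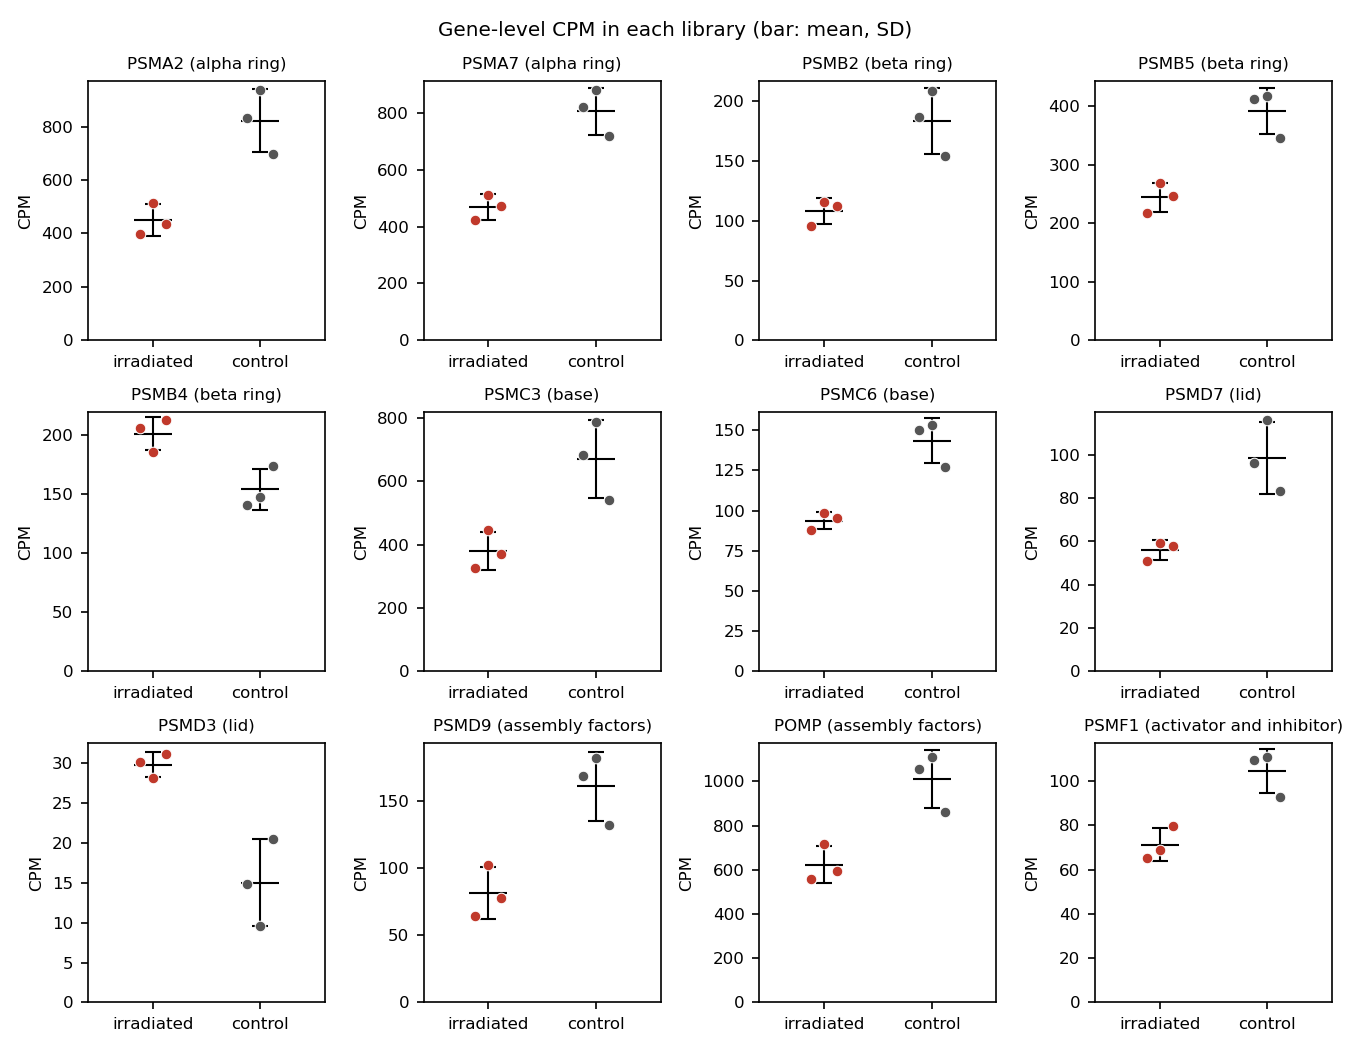
Gene-level CPM (vertical axis, TMM-scaled) of 12 members in each irradiated (red, left) and control (gray, right) library, with the mean and SD of 3 cultures. Irradiated libraries lie below control libraries in 10 of the panels and above them in the panels of PSMB4 and PSMD3.

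In the base of the regulatory particle, all 6 ATPase genes fell and the 3 scaffold and ubiquitin-receptor genes did not pass the test. PSMC3 had 328, 445 and 370 CPM in irradiated libraries, against 683, 787 and 542 CPM in control libraries (log2 fold change -0.82, SE 0.15, adjusted p = 0.00146 by edgeR). PSMC6 had 87.9, 98.3 and 95.1 CPM in irradiated libraries, against 150, 153 and 127 CPM in control libraries (log2 fold change -0.61, SE 0.12, adjusted p = 0.00273 by edgeR). PSMC1 had 52.7, 76.6 and 62.9 CPM in irradiated libraries, against 88.6, 101 and 103 CPM in control libraries (log2 fold change -0.61, SE 0.15, adjusted p = 0.00743 by edgeR). None of these groups overlapped, and PSMC2, PSMC4 and PSMC5 fell by 0.46, 0.43 and 0.46 on the log2 scale. With the length offset PSMC4 was not called (-0.22, adjusted p = 0.19 by edgeR), and the median of the base was -0.29 in place of -0.46. The large scaffolds PSMD1 and PSMD2 had log2 fold changes of -0.17 and -0.04, and PSMD4, a receptor for ubiquitin chains, had -0.12, none of them past the test (adjusted p = 0.373, 0.827 and 0.454 by edgeR). The difference between the ATPases and these genes was not tested. PSMC1 has 13 annotated pseudogenes, of which 5 are in the table with counts equal to 3.88% of its own.

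In the lid, 4 of 8 genes fell and 1 rose. PSMD7, a partner of the deubiquitinase, had 50.7, 59.1 and 58.0 CPM in irradiated libraries, against 96.1, 116 and 83.0 CPM in control libraries (log2 fold change -0.81, SE 0.15, adjusted p = 0.00146 by edgeR). PSMD8 had 377, 413 and 438 CPM in irradiated libraries, against 685, 663 and 546 CPM in control libraries (log2 fold change -0.62, SE 0.12, adjusted p = 0.00221 by edgeR). Neither pair of groups overlapped. PSMD14, the deubiquitinase that clips ubiquitin chains off the substrate, fell by 0.50 on the log2 scale and PSMD6 by 0.49, while PSMD11, PSMD12 and PSMD13 did not pass the test, at -0.34, -0.13 and -0.04. With the length offset PSMD6 was not called (-0.30, adjusted p = 0.101 by edgeR) and PSMD11 was (-0.50, adjusted p = 0.012 by edgeR).

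PSMD3 rose, the largest increase among the members (chromosome 17, 39980797 to 39997960, GRCh38, plus strand). This structural lid subunit had 30.1, 28.1 and 31.2 CPM in irradiated libraries, against 14.8, 9.64 and 20.5 CPM in control libraries. The irradiated libraries lay close together and all above the control libraries, which spread more widely. The log2 fold change was 0.98 (SE 0.24, adjusted p = 0.00709 by edgeR), and the call held in each of 6 fits that left out 1 library (0.74 to 1.30) and with protein-coding transcripts only (1.01). Both of its kept transcripts rose. ENST00000264639, with 12 exons, had 22.5, 20.9 and 22.9 CPM in irradiated libraries, against 13.7, 7.80 and 15.5 CPM in control libraries (log2 fold change 0.84, adjusted p = 9.67e-05 by edgeR). ENST00000540504, with 4 exons and an annotated start 5812 bases downstream, had 7.09, 6.78 and 7.64 CPM in irradiated libraries, against 1.27, 2.23 and 5.09 CPM in control libraries (log2 fold change 1.17, adjusted p = 0.000133 by edgeR). Its annotated coding sequence of 350 bases is not a whole number of codons, and whether this model is complete was not tested.

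The assembly factors had the lowest median of the groups with more than 2 genes, -0.69, with 6 of 8 genes lower and none higher. PSMD9, a chaperone of the base, showed the largest decrease of all members (chromosome 12, 121888731 to 121918297, GRCh38, plus strand). It had 64.6, 103 and 77.6 CPM in irradiated libraries, against 169, 182 and 132 CPM in control libraries, without overlap. Its log2 fold change was -0.98 (SE 0.17, adjusted p = 0.00103 by edgeR), a level 1.97-fold lower. POMP, which matures the core, had 558, 717 and 597 CPM in irradiated libraries, against 1056, 1112 and 863 CPM in control libraries (log2 fold change -0.70, SE 0.13, adjusted p = 0.00201 by edgeR). PSMG4, part of the chaperones of the alpha ring, had 53.0, 60.7 and 47.8 CPM in irradiated libraries, against 86.8, 98.4 and 87.2 CPM in control libraries (log2 fold change -0.76, SE 0.14, adjusted p = 0.00157 by edgeR). The irradiated libraries were below the control libraries throughout for both. The chaperones PSMG2, PSMD5 and PSMD10 fell as well, at -0.86, -0.69 and -0.61, and PSMG1 and PSMG3 did not pass the test, at -0.18 and -0.50. PSMD10 was not called with the length offset (-0.38, adjusted p = 0.152 by edgeR).

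PSMF1, an inhibitor of the core, had 65.4, 69.1 and 79.5 CPM in irradiated libraries, against 109, 111 and 92.9 CPM in control libraries, without overlap (log2 fold change -0.55, SE 0.13, adjusted p = 0.00793 by edgeR). PSME3, a nuclear activator that opens the core without ATP, had 104, 100 and 113 CPM in irradiated libraries, against 127, 95.9 and 125 CPM in control libraries. These overlapped, and the log2 fold change of -0.13 did not pass the test (SE 0.13, adjusted p = 0.5 by edgeR).

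The fall did not rest on any single library, but its extent did. Leaving out each library in turn gave 16 to 30 members that fell, the lowest number without irradiated 1. Over all 11118 genes these fits called 977 (without irradiated 1) to 1920 (without control 3) lower, against 1567 with all libraries. Of the 27 members, 16 kept their call in every such fit. PSMA5 and PSMD5 kept theirs in 1 of the 6 fits. Several members have sequence that other loci share: 9 have annotated pseudogenes, and exons of 17 overlap exons of another gene (14 on the opposite strand, 5 on the same). How the counting divided such reads was not tested.

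Per kilobase of transcript, member levels covered a wide range. PSMA7 was the highest, at 512 ± 44.4 CPM per kilobase in irradiated and 835 ± 73.5 CPM per kilobase in control cells, and PSMD5 the lowest in both, at 3.12 ± 1.03 and 8.11 ± 0.903 (SD, n = 3 each). PSMD3 was low among the subunits, at 26.4 ± 1.501 CPM per kilobase in irradiated and 11.8 ± 5.58 in control cells, while another lid subunit, PSMD8, had 255 ± 20.0 and 413 ± 51.4 (transcripts with an annotated length, 62.9% of the counts of PSMD8). Subunits of the same complex thus differed widely in transcript level.

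Transcript length moved with the fold changes of all genes. Over all genes, the median log2 fold change was -0.34 in the shortest of 4 equal-sized length classes (up to 1722 bases), -0.01 in the second, 0.20 in the third and 0.33 in the longest. Of the members, 21 were in the shortest class, 9 in the second and 10 in the third, with median log2 fold changes of -0.50, -0.46 and -0.41. The members' medians lay below that of all genes of like length in each of these classes, by less in the shortest one. With an offset that removed each library's trend on length, 22 members fell and 2 rose, with a median of -0.36 beside 0.02 over all genes. The same offset called 1203 of all 11118 genes lower and 1021 higher. PSMA3, PSMB3, PSMB7, PSMC4, PSMD6 and PSMD10 lost their call under it. Among the members that kept theirs, falls were larger in PSMA4 (-0.59), PSMA5 (-0.51), PSMB2 (-0.85), PSMC1 (-0.82), PSMC2 (-0.50), PSMD5 (-0.82) and PSMF1 (-0.78). They were smaller in the others, such as PSMA7 (-0.43), PSMB5 (-0.38), PSMB6 (-0.34), PSMC3 (-0.54), PSMC5 (-0.29), PSMD8 (-0.31) and POMP (-0.43). PSMB4 and PSMD3 had larger rises (0.72 and 1.13).

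**Figure D3:**
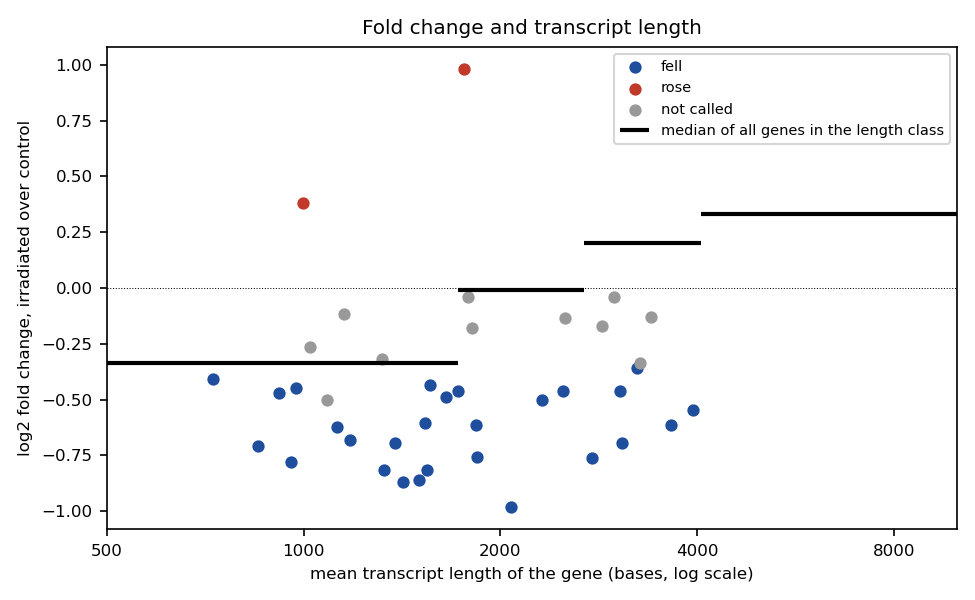
Log2 fold change of irradiated over control cells (vertical axis) against the mean transcript length of the gene (horizontal axis, log scale, bases) for the 40 members tested. Black lines give the median of all genes in each of 4 length classes (-0.34, -0.01, 0.20 and 0.33), and most members lie below the line of their class.

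The individual transcripts of the members showed a mixed picture beneath the fall of the genes. Of 335 member transcripts tested, 112 were lower and 40 higher in irradiated cells (quasi-likelihood test of edgeR, Benjamini-Hochberg adjusted over 74843 transcripts), beside 10.7% lower and 8.54% higher over all transcripts. The most abundant transcript of each gene fell in 34 of 40 members and rose in 1 (PSMD3), beside 22.8% lower and 7.35% higher over the most abundant transcripts of all 11118 genes. Its share of the gene's counts was lower in irradiated cells in 35 members, and without overlap between groups in 30. Over all genes that share was lower in 75.1%, and without overlap in 33.7%.

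The transcripts that fell with the smallest adjusted p were both retained-intron transcripts of PSMC3, whose gene fell as a whole. ENST00000531653 had 14.3, 21.97 and 16.5 CPM in irradiated libraries, against 44.0, 61.1 and 33.8 CPM in control libraries (log2 fold change -1.40, adjusted p = 2.36e-13 by edgeR). ENST00000528362 had 14.7, 20.9 and 16.2 CPM in irradiated libraries, against 41.5, 58.1 and 32.4 CPM in control libraries (log2 fold change -1.35, adjusted p = 1.78e-12 by edgeR). The transcripts that rose with the smallest adjusted p belonged to genes that were not called lower. ENST00000556221 of PSMA6, annotated as protein coding with 423 bases, had 16.7, 10.9 and 16.7 CPM in irradiated libraries, against 6.33, 4.78 and 8.69 CPM in control libraries (log2 fold change 1.13, adjusted p = 1.61e-06 by edgeR). ENST00000466425 of PSMB4, a retained-intron transcript, had 36.1, 28.6 and 37.1 CPM in irradiated libraries, against 13.9, 15.1 and 25.0 CPM in control libraries (log2 fold change 0.88, adjusted p = 1.11e-05 by edgeR). The groups did not overlap for any of the transcripts named here.

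The rise of PSMB4 lay in its retained-intron transcripts. Its coding transcript, ENST00000290541 with 7 exons, had 80.7, 84.8 and 84.0 CPM in irradiated libraries, against 90.6, 97.5 and 88.0 CPM in control libraries, and did not pass the test (log2 fold change -0.15, adjusted p = 0.578 by edgeR). ENST00000474100 had 43.7, 36.4 and 45.6 CPM in irradiated libraries, against 21.0, 20.9 and 33.0 CPM in control libraries (log2 fold change 0.73, adjusted p = 0.00028 by edgeR). ENST00000493673 had 36.8, 29.05 and 37.6 CPM in irradiated libraries, against 14.9, 16.2 and 25.6 CPM in control libraries (log2 fold change 0.83, adjusted p = 3.18e-05 by edgeR). Together with ENST00000466425 these transcripts, which have no coding sequence in the annotation, were higher in every irradiated library. The coding transcript held 40.1%, 46.4% and 40.4% of the gene's counts in irradiated libraries, against 63.7%, 63.6% and 50.5% in control libraries. ENST00000474100, ENST00000493673 and the coding transcript were named after their values were seen.

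**Figure D4:**
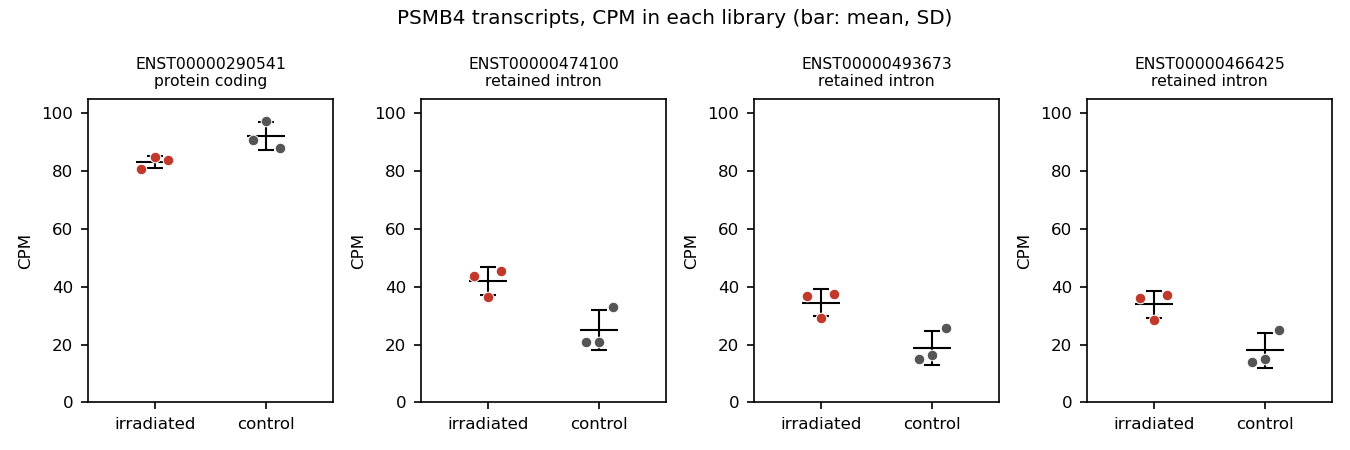
CPM (vertical axis, TMM-scaled) of the coding transcript of PSMB4 and of 3 retained-intron transcripts in irradiated (red, left) and control (gray, right) libraries, with mean and SD of 3 cultures. The coding transcript lies slightly lower in irradiated libraries and the retained-intron transcripts higher.

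Across the members, counts shifted from protein-coding to retained-intron transcripts. Protein-coding transcripts held 66.3 ± 0.634% of member counts in irradiated and 69.3 ± 0.766% in control libraries, and retained-intron transcripts 10.1 ± 0.786% and 7.36 ± 0.782% (SD, n = 3 each), without overlap for either class. Over all genes tested, the protein-coding share was 64.4 ± 0.483% in irradiated and 66.8 ± 0.655% in control libraries. The retained-intron share over all genes was 9.55 ± 0.184% and 8.66 ± 0.287%, so the direction of both was shared. Among the 27 members with such transcripts, the share was higher in irradiated cells in 20, 17 of them without overlap, and lower in 7. Over all 4049 genes with such transcripts, it was higher in 64.1%, higher without overlap in 27.5%, and lower in 33.9%. PSMD14 had 36.4 ± 5.57% of its counts in retained-intron transcripts in irradiated and 16.9 ± 5.89% in control libraries, PSMG1 29.4 ± 4.09% and 12.9 ± 7.19%, and PSMD5 3.46 ± 2.02% and 10.7 ± 0.953%, the last in the other direction. Summing protein-coding transcripts only gave 29 members that fell and 1 that rose, PSMD3. Over all 9234 genes of that fit, 1591 were called lower and 1340 higher.

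Isoform usage was measured as the isoform fraction, the share of a gene's counts in 1 transcript, and dIF is the mean fraction in irradiated minus that in control cells. Among the 335 member transcripts, 57 had a higher and 5 a lower fraction at an adjusted p under 0.05 (edgeR's diffSpliceDGE with Benjamini-Hochberg adjustment over 73603 transcripts), beside 3.59% and 0.927% over all transcripts. With an absolute dIF of at least 0.1 added, 6 isoforms were gained and 1 was reduced, in 6 genes, where 0.41% of all transcripts passed that rule in either direction. Of the 6 gained isoforms, 4 carry no coding sequence in the annotation (2 retained-intron transcripts and 2 of the class named processed transcript) and 2 are protein coding. Over all genes, the gained isoforms were 94 protein-coding, 47 retained-intron, 44 processed and 11 nonsense-mediated decay transcripts, with 4 not in GENCODE 29 and 1 of another class. The members' shares were not tested against these.

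PSMA7 gained ENST00000442551, a protein-coding isoform. Its share was 21.6%, 17.1% and 19.7% in irradiated libraries, against 6.28%, 5.43% and 11.3% in control libraries, a dIF of 11.8 percentage points (adjusted p = 8.88e-08 by edgeR). The main isoform, ENST00000370873, held 69.7%, 73.5% and 71.6% in irradiated libraries, against 83.8%, 84.5% and 79.2% in control libraries. The gained isoform has 5 exons where the main one has 7, and its annotated start lies 3525 bases downstream. It lengthens 1 exon by 39 bases, a whole number of codons (13), inside its coding sequence (GENCODE, GRCh38, chr20:62137427-62137465, minus strand). Its other 4 exons are identical to exons of the main isoform, and its annotated coding sequence of 560 bases is not a whole number of codons. Whether the annotated model is complete at its start was not tested. The added bases are shown in capitals with 15 bases of exon on each side, since they mark the isoform whose share rose in every irradiated library.
PSMA7 ENST00000442551: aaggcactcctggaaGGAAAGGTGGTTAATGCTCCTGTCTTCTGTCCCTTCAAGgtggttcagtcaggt
This was the only one of the 7 calls that held in each of the 6 fits that left out 1 library.

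PSMB7 gained ENST00000498485, a transcript with no annotated coding sequence. It held 20.6%, 15.6% and 20.8% of the gene's counts in irradiated libraries, against 7.45%, 5.21% and 11.4% in control libraries (dIF 10.99 points, adjusted p = 9.97e-05 by edgeR). The main isoform, ENST00000259457 with 8 exons, held 77.8%, 83.0% and 78.5% in irradiated libraries, against 90.3%, 92.5% and 87.5% in control libraries. The gained isoform uses another first exon, which starts 148 bases downstream, and skips 1 exon of 116 bases (chr9:124405317-124405432, minus strand, GRCh38), which is not a whole number of codons. The skipped exon is shown in capitals between 15 bases of its neighbours, as the main isoform carries it.
PSMB7 ENST00000259457: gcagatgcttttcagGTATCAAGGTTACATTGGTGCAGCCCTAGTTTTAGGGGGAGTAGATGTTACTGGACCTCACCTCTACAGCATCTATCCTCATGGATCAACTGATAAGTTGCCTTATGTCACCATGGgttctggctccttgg
The groups did not overlap, and the call held in 5 of the 6 fits that left out 1 library, with a dIF under the limit (9.59 points) without control 2.

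PSMD11, a lid subunit, was the only member with an isoform in each direction. ENST00000457654 was reduced, with 17.5%, 19.3% and 19.8% in irradiated libraries against 32.7%, 33.6% and 27.0% in control libraries (dIF -12.3 points, adjusted p = 0.0263 by edgeR). ENST00000649012 was gained, with 26.7%, 26.6% and 26.9% in irradiated libraries against 13.5%, 13.9% and 18.7% in control libraries (dIF 11.4 points, adjusted p = 0.0166 by edgeR). The most abundant isoform, ENST00000261712, held 45.0%, 45.2% and 45.6% in irradiated libraries, against 48.3%, 49.0% and 45.8% in control libraries. All of them carry a coding sequence of 1266 bases, and they are 2159, 3317 and 4098 bases long in the order named, so the usage moved from the shorter to a longer transcript. Both calls held in 1 of the 6 fits that left out 1 library.

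PSMA5 gained ENST00000490870, a transcript with no annotated coding sequence and another first exon. It held 32.6%, 23.9% and 31.8% in irradiated libraries, against 15.1%, 12.8% and 21.0% in control libraries (dIF 13.1 points, adjusted p = 0.00554 by edgeR), while the main isoform, ENST00000271308, held 66.7%, 73.3% and 67.8% in irradiated and 83.8%, 86.0% and 78.0% in control libraries. PSMD14 gained ENST00000477232, a retained-intron transcript whose first exon, 4212 bases long, starts 73322 bases downstream of the main start. It held 20.2%, 16.2% and 22.3% in irradiated libraries, against 7.26%, 6.97% and 12.5% in control libraries (dIF 10.7 points, adjusted p = 0.00132 by edgeR), while ENST00000409682, the main isoform, held 63.1%, 69.5% and 58.4% in irradiated and 86.9%, 86.1% and 76.3% in control libraries. PSMG1, a chaperone of the alpha ring, gained ENST00000481921, a retained-intron transcript of 3 exons that starts 5031 bases downstream. It held 31.1%, 24.8% and 32.4% in irradiated libraries, against 8.75%, 8.76% and 21.2% in control libraries (dIF 16.5 points, adjusted p = 0.0111 by edgeR), while ENST00000331573 held 67.0%, 75.2% and 66.0% in irradiated and 90.0%, 88.7% and 76.2% in control libraries. In all of these genes the irradiated libraries lay above the control libraries for the gained isoform, and control 3 was the highest control library. The calls held in 2 (PSMA5), 3 (PSMD14) and 2 (PSMG1) of the 6 fits that left out 1 library. When counts were divided by transcript length before the fractions were taken, the dIF of ENST00000477232 was 4.76 points, under the limit of 0.1 (10 points), and that of ENST00000481921 was 25.8 points. With library totals alone, the calls of PSMG1 and of both PSMD11 isoforms were lost.

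**Figure D5:**
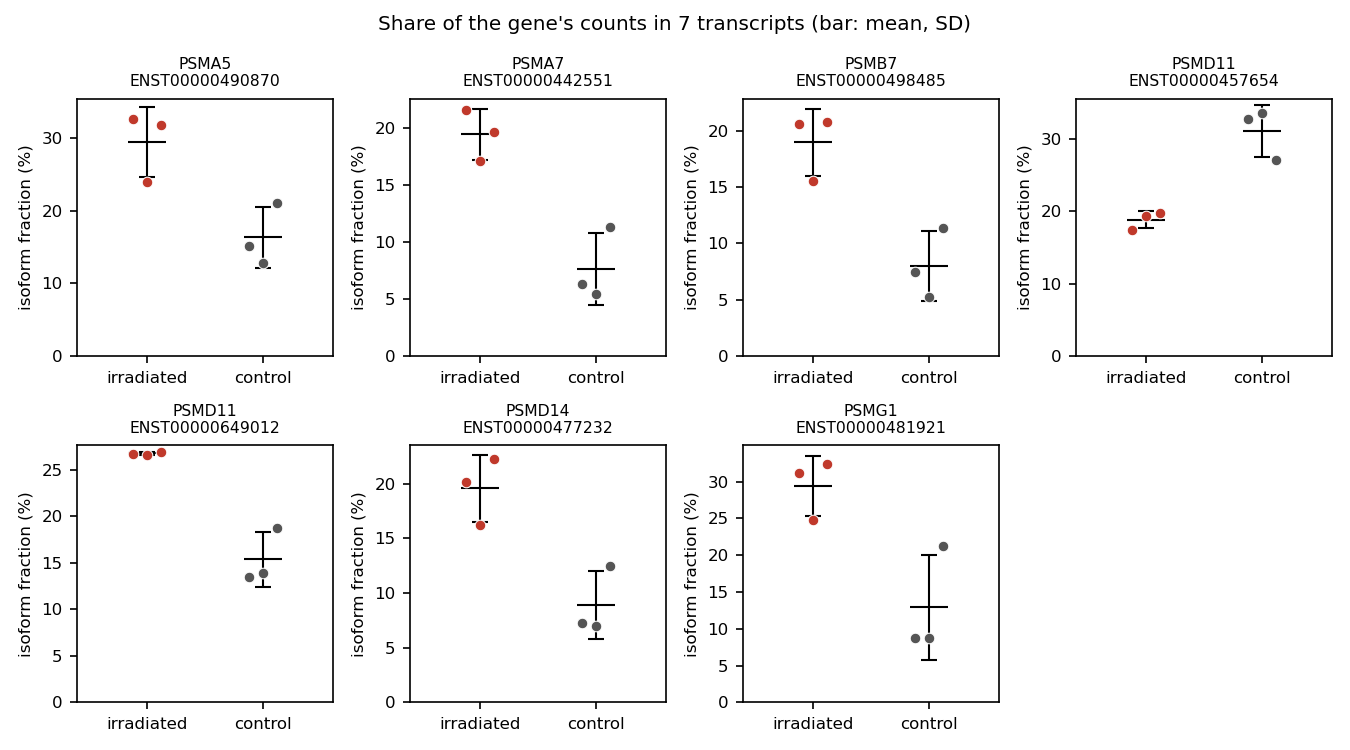
Isoform fraction in percent of the gene's counts (vertical axis) of the 7 isoforms called in the usage test, in irradiated (red, left) and control (gray, right) libraries, with mean and SD of 3 cultures. Gained isoforms lie higher in every irradiated library, and ENST00000457654 of PSMD11 lies lower.

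Among genes that act around the proteasome, some fell and others rose. Mean transcript length was 880 (PSMB10) to 4025 bases (TXNL1) in those called lower. In those called higher it was 2112 (NFE2L2) to 5090 bases (UBE3C). Whether these calls, that of NFE2L1 among them, hold with the length offset or with library totals alone was not tested. Of 8 other regulatory particle and immunoproteasome genes, 4 fell and 1 rose, beside 14.1% lower and 11.6% higher over all genes tested. PSMB10, the immunoproteasome counterpart of PSMB7, had 18.9, 20.3 and 23.1 CPM in irradiated libraries, against 42.6, 45.3 and 41.3 CPM in control libraries (log2 fold change -1.05, SE 0.17, adjusted p = 0.000785 by edgeR). PSME1, an interferon-inducible activator of the core, had 436, 535 and 412 CPM in irradiated libraries, against 717, 764 and 638 CPM in control libraries (log2 fold change -0.62, adjusted p = 0.00299 by edgeR). PSMB10 was separated by a wide margin, and SEM1 and PSME2 also fell (-0.54 and -0.34) while PSME4 rose (0.71), these last named after their values were seen.

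Among 7 genes that regulate proteasome expression, 2 rose and 1 fell, beside 11.6% higher and 14.1% lower over all genes tested. NFE2L1 had 74.9, 62.4 and 70.4 CPM in irradiated libraries, against 36.6, 30.3 and 44.9 CPM in control libraries, with every irradiated library above every control library (log2 fold change 0.89, SE 0.16, adjusted p = 0.00161 by edgeR). The transcript level of this activator of subunit genes thus rose in the same libraries in which 27 members fell. NFYB, a subunit of the CCAAT-binding factor NF-Y, had 17.0, 20.0 and 24.4 CPM in irradiated libraries, against 34.6, 32.9 and 29.9 CPM in control libraries (log2 fold change -0.66, SE 0.19, adjusted p = 0.0176 by edgeR). The other gene that rose was NFE2L2, at 0.48, with overlapping groups, named after its value was seen.

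Of 9 tested proteasome-bound factors, 2 fell and 1 rose: TXNL1, a thioredoxin-like protein of the regulatory particle, at -0.53 (adjusted p = 0.0126 by edgeR), UBE3C, a ubiquitin ligase that extends chains at the proteasome, at 0.81 (adjusted p = 0.0167 by edgeR), and UCHL5, a deubiquitinase, at -0.53, named after its value was seen. Over all genes tested, 14.1% fell and 11.6% rose, the shares to set beside these counts and the next. Of 12 tested ubiquitin genes, activating enzymes and shuttles, 5 fell and 3 rose. RPS27A, which encodes ubiquitin fused to a ribosomal protein, had 1881, 2800 and 2257 CPM in irradiated libraries, against 5092, 6194 and 4447 CPM in control libraries (log2 fold change -1.18, SE 0.16, adjusted p = 0.000429 by edgeR). UFD1 fell as well, at -0.55, and UBA1, UBQLN1 and VCP rose, at 0.40, 0.68 and 0.43, all named after their values were seen. AKIRIN2 and UBQLN2 did not pass the filters and were not tested.

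Promoter sequences were available for 35 of the 41 members (43 promoters, 250 bases before to 50 after the start, RefSeq, GRCh38.p14). TGACNNNGC, the element bound by NFE2L1 and related factors, was found on either strand in 25.6% of the member promoters, against 13.3% of all 35116 promoters and 14.5% of those of the genes tested. CCAAT, searched on both strands, was in 41.9% of the member promoters, against 34.6% of all promoters. Of 30 promoters of members that fell, 7 held TGACNNNGC and 15 CCAAT, and of 11 promoters of members not called, 3 held TGACNNNGC and 2 CCAAT. A match is a description of the letters only, and these shares were not tested.

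The 250 upstream bases of PSMD3, the clearest rise, of PSMD9, the largest fall, and of PSMA2, the largest fall in the core, are shown 5′ to 3′ with these motifs in capitals. In PSMD3 (chr17:39980557-39980806, plus strand) TGACNNNGC starts 37 bases and CCAAT, on the opposite strand, 217 bases before the transcription start. In PSMD9 (chr12:121888540-121888789, plus strand) TGACNNNGC is present 149 bases, on the opposite strand, and 102 bases before the start. In PSMA2 (chr7:42932175-42932424, minus strand) CCAAT starts 84 bases before the start.
PSMD3: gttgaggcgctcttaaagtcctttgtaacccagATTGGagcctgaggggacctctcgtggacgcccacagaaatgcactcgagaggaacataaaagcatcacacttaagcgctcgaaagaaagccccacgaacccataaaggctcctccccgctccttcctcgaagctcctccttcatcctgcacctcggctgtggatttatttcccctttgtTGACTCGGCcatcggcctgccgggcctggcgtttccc
PSMD9: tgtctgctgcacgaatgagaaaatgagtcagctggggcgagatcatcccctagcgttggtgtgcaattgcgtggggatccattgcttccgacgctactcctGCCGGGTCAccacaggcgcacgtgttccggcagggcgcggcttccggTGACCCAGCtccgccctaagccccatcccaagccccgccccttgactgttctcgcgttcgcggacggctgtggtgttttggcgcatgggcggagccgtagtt
PSMA2: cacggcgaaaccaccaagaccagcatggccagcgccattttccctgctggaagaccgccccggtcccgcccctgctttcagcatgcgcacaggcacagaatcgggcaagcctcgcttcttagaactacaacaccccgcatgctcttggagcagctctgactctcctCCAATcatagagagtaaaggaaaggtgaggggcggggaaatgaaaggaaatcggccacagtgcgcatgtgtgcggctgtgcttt
The same element thus stood upstream of a gene that rose and of the gene that fell most.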

How the data were processed

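The deposited counts are whole numbers per transcript and library. The authors basecalled cDNA-PCR reads with MinKNOW, aligned them to GRCh38 with minimap2, assembled transcripts with StringTie2, annotated them with GffCompare and quantified them with Salmon. Which versions of the alignment, assembly and quantification tools, which annotation release and which strand handling were used is not given in the sources used. The kit adds molecular identifiers, but no collapsing by them is stated, so counts may include PCR copies.

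Genes were kept at 10 counts in at least 3 libraries, transcripts at 3 counts in at least 1 library, and genes with at least 2 kept transcripts. Kept counts were summed per gene and tested with edgeR 4.0.16 in R 4.3.3 (TMM factors, robust quasi-likelihood fit, Benjamini-Hochberg adjustment over all features), called at an adjusted p under 0.05. Standard errors were derived from the fold change and the square root of the F statistic. Transcript classes, lengths and positions come from GENCODE release 29, which lacks 63 of the 335 kept member transcripts. Isoform fractions are shares of counts, not divided by length. In 5 genes a pair of transcripts held nearly equal counts (within 2%), so reads shared by near-identical models may have been split. The p-values measure the spread between 3 cultures per group. The fits were tested on simulated counts.

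The members and lists were chosen with earlier results of these data known. Named are the 3 members with the smallest adjusted p in each role group, every member that rose, members not tested, isoforms called in the usage test with the gene's most abundant transcript, the 2 member transcripts with the smallest adjusted p in each direction, and the 2 genes with the smallest adjusted p in each pathway list. Some genes of the pathway lists are counted but their values are not reported here. Alternatives were RLE factors, library totals, DESeq2 1.42.0, limma 3.58.1, other filters, a length offset, a replicate block and leaving out each library. Summing without some transcript classes was chosen after seeing the data. Figures were drawn with matplotlib 3.10.9.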

Additional observations from a re-analysis of the deposited data

How the results depend on the processing

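The 27 members that fell numbered 22 to 29 under RLE factors, DESeq2, a length offset, other filters and transcript classes, and 9 with library totals alone. Leaving out 1 library gave 16 to 30. Over all genes, those lower numbered 1203 to 1769 under the same settings and 356 with library totals alone. Leaving out 1 library gave 977 to 1920 over all genes. The 2 members that rose became 1 with RLE factors, no filter, protein-coding transcripts only or no retained-intron transcripts. They became 5 with library totals, and 1 to 2 with a library left out. Library totals gave 43 lower and 85 higher transcripts; DESeq2 gave 24 higher; leaving out a library gave 80 to 128 lower and 20 to 54 higher. Gained isoforms numbered 11 with length-divided fractions (5 of the 6 among them, without that of PSMD14) and 1 to 11 with a library left out (1 without control 2, 2 without irradiated 3 or control 1, 3 without irradiated 1, 11 without control 3). The 1 reduced isoform became 15 with limma, and 2 with length-divided fractions or at least 10 counts in 3 libraries. It became 0 with library totals, and 0 to 7 with a library left out. Over all genes, isoforms called in either direction numbered 302 with all libraries. They numbered 109 without control 2 or irradiated 3, 110 without irradiated 1, 131 without control 1, and 771 without control 3. The members' median moved from -0.48 to -0.024 with library totals and to -0.36 with the length offset (beta ring -0.22, base -0.29), and was -0.58 to -0.42 with a library left out.

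With library totals alone the sign turned for the medians of the lid (0.041) and of the activator and inhibitor (0.11), and for PSMA1 (0.13), PSMA5 (0.10), PSMA6 (0.19), PSMB3 (0.048), PSMB7 (0.010), PSMC4 (0.019), PSMD1 (0.29), PSMD2 (0.41), PSMD4 (0.34), PSMD11 (0.11), PSMD12 (0.32), PSMD13 (0.41), PSMG1 (0.28) and PSME3 (0.31); this setting differs in its scaling only. With the length offset it turned for PSMA6 (0.075), PSMD4 (0.19) and PSMD13 (0.11). PSMB4 turned to -0.060 with protein-coding transcripts only and to -0.076 without retained-intron transcripts, and PSMD2 to 0.014 with protein-coding transcripts only. Over all genes, limma called 913 isoforms with the usage limits, length-divided fractions 543, and edgeR 302.

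Whether replicate numbers pair the cultures is not given. Deviations of same-numbered cultures correlated at -0.03, 0.27 and 0.10, and those of differently numbered cultures at -0.32 to 0.24. So few pairs cannot settle it. With the number as a replicate block, 28 members fell, 2 rose, 113 transcripts fell, 48 rose, 7 isoforms were gained and 5 reduced. Genes under about 10 CPM, such as PSMD5, were measured with few reads.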
